A study of Mus musculus with 10 samples.

Results

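Genes of the pre-mRNA splicing machinery were followed in long-term hematopoietic stem cells (LT-HSCs) sorted from mouse fetal livers at embryonic day E14.5. The set held every gene of the count table whose symbol starts with Srsf, Snrp (other than Snrpn), Hnrnp, Sf3a, Sf3b or Prpf, or with Lsm and a digit. These were 79 of 17404 genes, with 13 LSm genes, 11 Sm and snRNP genes, 12 SR genes, 21 hnRNP genes, 13 PRPF genes and 9 SF3 genes. Among them were 2 pseudogene rows, Srsf3.ps and Hnrnpa1l2.ps2.

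The KO group (6 libraries) carried Tnfrsf11aCre and floxed Spi1 on both alleles (Spi1f/f), and the WT group (4 libraries) was Tnfrsf11a+/+ and also Spi1f/f. Spi1 encodes PU.1, a transcription factor needed for macrophage differentiation, and Tnfrsf11a is expressed by macrophage precursors, so that this Cre removes Spi1 from the macrophage lineage. The authors describe the stem cells as wildtype in this model, and recombination in the sequenced cells was not measured here. The comparison asks how the transcriptome of these cells differs in a liver depleted of macrophages. The labels give neither the sex of an embryo nor whether each library came from a separate embryo, so that p-values measure the spread between libraries.

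Introns are removed by the spliceosome, a set of small nuclear RNAs with their proteins. Sm and LSm proteins form rings around these RNAs, SF3A and SF3B proteins in the U2 particle hold the branch site, and PRPF proteins build and remodel the tri-snRNP. SR proteins mostly promote the use of an exon, and hnRNP proteins coat nascent RNA and often oppose exon use. Many SR and hnRNP genes also control their own output through a poison exon, an exon with an in-frame stop codon that sends the transcript to nonsense-mediated decay (NMD), or through a retained intron. Sf3b1, Srsf2, U2af1 and Zrsr2 are recurrently mutated in myelodysplastic neoplasms.

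The sequences that follow are the parts of member transcripts to which the transcript results below refer. They were read from the Gencode vM21 transcripts of mouse build GRCm38 and are written 5′ to 3′ on the strand of the gene. The first pair lies at both ends of intron 4 of Sf3b1, 1813 bases long (chr1:55014563-55016375, minus strand), which Sf3b1-203, a retained-intron transcript, keeps. Capitals mark the first 2 and the last 2 bases of the intron, and the windows are chr1:55016316-55016405 and chr1:55014533-55014622.
Sf3b1-203 start: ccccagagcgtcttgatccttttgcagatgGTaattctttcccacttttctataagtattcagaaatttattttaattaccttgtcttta
Sf3b1-203 end: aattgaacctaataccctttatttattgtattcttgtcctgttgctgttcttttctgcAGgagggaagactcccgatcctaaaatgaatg

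The second pair shows what makes an exon a poison exon. Hnrnpl-213 and Hnrnpll-203 are NMD transcripts, each with 1 exon that no protein-coding transcript of its gene overlaps. The Hnrnpl exon is 70 bases long (chr7:28817335-28817404, plus strand) and the Hnrnpll exon 83 bases (chr17:80044940-80045022, minus strand). Of 16 member NMD transcripts of unchanged annotation version with at least 15% of their gene's reads in a group, these 2 had such an exon with the stop codon in it. Printed is the translated start of each exon up to its stop codon, in capitals, at chr7:28817335-28817393 and chr17:80044976-80045022.
Hnrnpl-213: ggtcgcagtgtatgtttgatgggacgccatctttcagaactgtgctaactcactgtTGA
Hnrnpll-203: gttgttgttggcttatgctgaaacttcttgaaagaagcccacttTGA

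Libraries held 5315435 to 30941726 counts in KO and 7633446 to 18256010 in WT, and 79 of 79 members passed the filter of 11 counts over all libraries, which 16725 genes passed. Levels are given as CPM, counts relative to the library total after TMM, a correction for library composition. Spi1 itself, which this Cre was not meant to remove from stem cells, ranged from 9.10 to 101 CPM across KO libraries and from 6.22 to 50.1 CPM across WT libraries. Of 10 macrophage markers, 1 passed the test, Marco, a scavenger receptor, which had no count in the 6 KO libraries and 3.41 to 14.3 CPM in WT. Of 10 LT-HSC markers, 10 had counts in every library and 3 were higher in KO, with a summed level of 712 to 1798 CPM in KO and 510 to 753 CPM in WT. Erythroblast markers summed to 2142 to 95027 CPM in KO and 2420 to 240358 CPM in WT, the highest in WT 15418, with adjusted p of 0.101 or above for the 9 measured (edgeR). Endothelial markers summed to 1159 to 6911 CPM in KO and 615 to 4328 CPM in WT, above the LT-HSC sum in most libraries. Hepatoblast markers summed to 66.5 to 6259 CPM and 156 to 4357 CPM, and megakaryocyte markers to 157 to 3137 CPM and 159 to 1097 CPM. Granulocyte markers summed to 10.7 to 1175 CPM and 6.14 to 2092 CPM. No gene of these lists passed the test. WT 15416 had the lowest endothelial and macrophage sums, at 615 and 88.0 CPM. WT 15416 was the highest WT library for 45 of the 76 members with a mean level of at least 10 CPM (59.2%), against 31.5% of the 9495 genes at that level. Medians of families and gene lists that moved by over 1.5 times without WT 15416 are therefore given without it as well.

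Most splicing genes had lower TMM-scaled levels in KO LT-HSCs, by a moderate amount. The log2 fold change was below 0 for 62 of 79 members, against 46.9% of all genes tested. Its median was -0.32 over the members and 0.06 over all genes. At an adjusted p below 0.1 (edgeR's quasi-likelihood test, Benjamini-Hochberg over all genes), 8 members fell and 0 rose. These 8 are 10.1% of the members, where 2.67% of all genes tested were lower and 1.32% higher. At an unadjusted p below 0.05, 24 members were lower and 2 higher (10.2% and 8.60% of all genes), and DESeq2 called 17 lower and 1 higher with no fold-change threshold (6.85% and 5.97%). With the study's threshold of 0.1 on the log2 scale DESeq2 called 11 lower and 0 higher (3.29% and 3.50%). Every KO library was below every WT library for 11 members (13.9%, against 3.48% of all genes), and above for 0 (2.88%). In a bulk sample, a smaller share of cells of a type and less RNA per cell cannot be told apart.

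The size of this difference has to be read against the level of the genes. Splicing genes are abundant, and abundant genes as a whole were lower in KO. Of the 79 members, 58 were in the top 20% of genes by mean level (at least 68.1 CPM), and 7 of these 58 fell (12.1%), where 9.45% of the 3345 genes at that level did. That comparison was chosen after the values were seen. The median log2 fold change there was -0.33 for members and -0.23 for all, and 82.8% of members against 68.3% of all genes were below 0. Every KO library was below every WT library for 9 of the 58 members (15.5%), where this held for 11.5% of the 3345 genes. The called share and the share without overlap thus lay near those of equally abundant genes. Nothing particular to splicing genes is read from either share. The other counts given above, such as those at an unadjusted p below 0.05, were not compared at equal level.

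**Figure D1:**
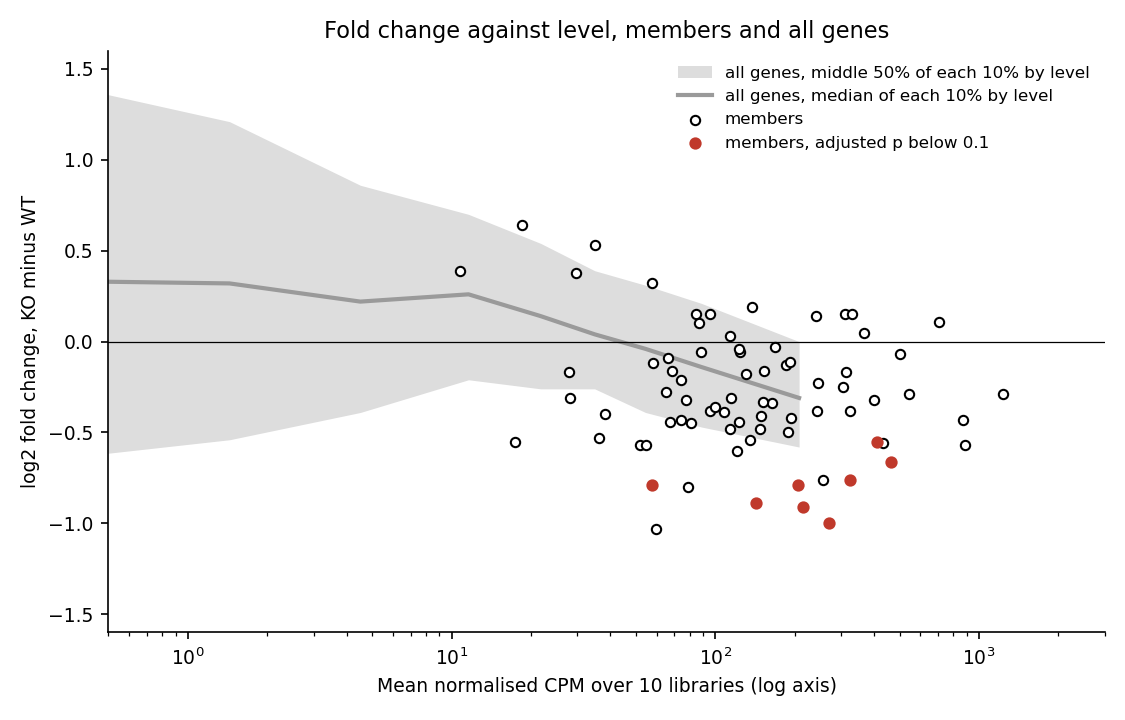
Log2 fold change (KO minus WT, vertical axis) against mean normalised CPM over 10 libraries (log axis). Each circle is a member with a mean above 1 CPM, filled where the adjusted p was below 0.1. The grey line and band are the median and the middle 50% of all genes in each 10% by level, the line falling from 0.68 in the lowest 10% (left of the drawn range) to -0.31 in the highest, where 38 members lie with a median of -0.34.

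The counts also depended on the libraries. Without WT 15416, the median of the members was -0.16 (0.08 over all genes) and edgeR's test called 0 members and 0 of all genes, with 17 members lower at an unadjusted p below 0.05. Leaving out KO 15405, 15406, 15412 or 15415 likewise left 0 calls among all genes, and leaving out KO 15411 left 0 lower and 1 higher, no member. Summed over the members, the normalised level was 13439 to 14710 CPM in KO and 15009 to 21906 CPM in WT (13959 ± 565, SD, n = 6, against 17500 ± 3050, n = 4), without overlap. As a share of all counts, with no composition scaling, the groups overlapped, between 1.35% and 1.62% for KO and between 1.11% and 2.04% for WT. TPM, Kallisto's length-scaled unit, has no TMM scaling either. In TPM the called members had lower means in KO, such as Lsm7 (501 against 764 in WT) and Srsf7 (170 against 185). Other members below 0 in CPM had higher TPM means in KO, such as Snrpe (460 against 425), Hnrnpk (1254 against 1216) and Sf3b1 (131 against 96.5).

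LSm genes had the lowest median of the 6 families, at -0.54, and 12 of the 13 were below 0. Lsm2 to Lsm8 encode the ring that binds the tail of U6 snRNA, and 7 of these 7 were below 0, from -0.38 for Lsm8 to -1.0 for Lsm7. Lsm7 stood at 174, 186 and 227 CPM in KO (lowest, median and highest) and at 551, 294, 235 and 459 CPM in WT 15416, 15417, 15418 and 15420. The groups did not overlap, although WT 15418 was close to the highest KO library. The KO mean was 0.502 times that of WT, a log2 fold change of -1.0 ± 0.22 (SE, adjusted p = 0.0824, edgeR).

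Lsm4 was at 133, 161 and 181 CPM in KO (lowest, median, highest) and at 328, 237, 271 and 270 CPM in the WT libraries, well apart. Its log2 fold change was -0.79 ± 0.16 (adjusted p = 0.0824, edgeR). Of the other ring genes, Lsm6 did not overlap between groups either (KO 92.5 to 131 CPM, WT 144 to 199 CPM) but was not called, at -0.54 (adjusted p = 0.129, edgeR). Lsm2, Lsm3, Lsm5 and Lsm8 overlapped, with log2 fold changes of -0.44, -0.60, -0.40 and -0.38.

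Lsm1 takes the place of Lsm8 in the cytoplasmic ring that takes part in mRNA decay. Its KO libraries, at 37.3 to 46.9 CPM, were below the WT libraries, at 56.7 to 78.3 CPM, and its adjusted p was 0.115 (edgeR, log2 fold change -0.57). Lsm10 and Lsm11 belong to the U7 particle, which processes the ends of histone mRNAs. Lsm10 had 38.9, 41.6 and 56.2 CPM in KO (lowest, median, highest) and 89.0, 83.7, 63.9 and 70.8 CPM in WT, without overlap, and fell by 0.79 on the log2 scale (SE 0.18, adjusted p = 0.0824, edgeR). Lsm11 was scarce, at 10.5 to 21.2 CPM in KO and 14.9 to 36.7 CPM in WT, which overlapped.

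Sm and snRNP genes were below 0 in 11 of 11, with a median of -0.32 (-0.13 without WT 15416), and 2 fell. Of all genes tested 2.67% fell, and of those with a mean of at least 68.1 CPM 9.45%. The families hold few genes, so their numbers of calls are not compared. Snrpd2 encodes a subunit of the Sm ring of the U1, U2, U4 and U5 particles. It was at 143, 158 and 170 CPM in KO and at 270, 222, 203 and 497 CPM in WT. All WT libraries were above all KO libraries, with WT 15420 far above the rest, and the log2 fold change of -0.91 ± 0.23 (adjusted p = 0.0836, edgeR) became -0.54 without WT 15420. Snrpa1, the U2 A′ protein, had 95.6, 104 and 129 CPM in KO and 272, 193, 132 and 193 CPM in WT. The lowest WT library, WT 15418, was just above the highest KO library, and Snrpa1 fell by 0.89 on the log2 scale (SE 0.20, adjusted p = 0.0824, edgeR).

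The remaining 6 Sm ring genes were not called, with log2 fold changes of -0.42 for Snrpe, -0.38 for Snrpg, -0.33 for Snrpd1, -0.32 for Snrpf, -0.29 for Snrpb and -0.04 for Snrpd3. The median of the 7 ring genes was -0.33, and -0.13 without WT 15416, where Snrpe was at -0.24 and Snrpg at -0.09. Snrpg was the most abundant of the family per transcript length, at 649 TPM (Kallisto's length-scaled unit) on average, and showed no separation, with 173 to 264 CPM in KO and 211 to 439 CPM in WT, the highest of which was WT 15416. Of the exonic bases of Snrpf, 85.4% are shared with Ccdc38, and reads from overlapping genes cannot be told apart where strand was not kept. The U1 proteins Snrpa and Snrpc were at -0.16 and -0.09.

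SR genes had a median of -0.34, and 2 of the 12 fell (2.67% of all genes, 9.45% of those at 68.1 CPM or above). Srsf2, which binds exonic enhancers, was at 212, 237 and 326 CPM in KO and at 380, 412, 312 and 620 CPM in WT. The groups overlapped, because 1 KO library was above WT 15418. Its log2 fold change was -0.76 ± 0.21 (adjusted p = 0.0918, edgeR), and 25.3% of its exonic bases are shared with Mettl23. Srsf7, a zinc-knuckle SR protein that also takes part in mRNA export, was at 309, 350 and 377 CPM in KO and 645, 469, 424 and 497 CPM in WT. Its groups were apart, and it was the call nearest the threshold, at -0.55 ± 0.16 (adjusted p = 0.0993, edgeR).

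The founding SR protein Srsf1 was at 110 to 150 CPM in KO and 130 to 225 CPM in WT (log2 fold change -0.48, adjusted p = 0.184, edgeR). Srsf5 was at 0.15, the highest of the SR genes with appreciable counts. The pseudogene row Srsf3.ps had 35 counts in all libraries together, so that its log2 fold change of 3.29 rested on few reads, and Srsf12 had 78 counts in all.

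**Figure D2:**
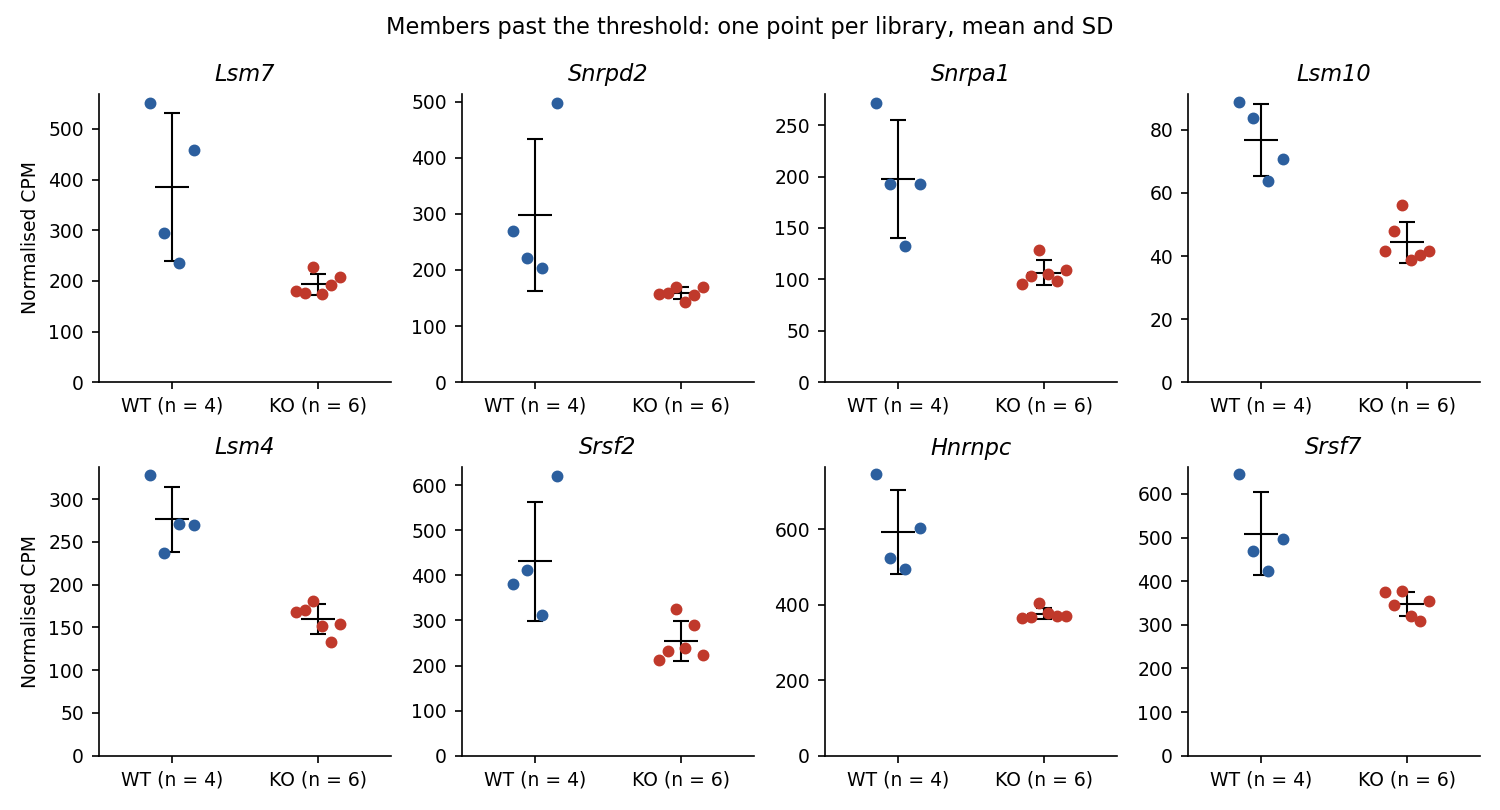
Normalised CPM of the 8 members past the threshold, with 1 point per library, the mean (bar) and the SD (whiskers) for 4 WT and 6 KO libraries, each vertical axis starting at 0. In 7 of the 8 genes every KO point is below every WT point, Srsf2 being the exception, and the WT points are more spread than the KO points.

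Heterogeneous nuclear ribonucleoproteins were the largest family, with a median of -0.29 (-0.19 without WT 15416) and 1 call. Hnrnpc, which binds uridine tracts and shields cryptic exons, was at 364, 370 and 405 CPM in KO and at 745, 524, 495 and 603 CPM in WT. The KO libraries lay close together and all below WT, and Hnrnpc fell by 0.66 on the log2 scale (SE 0.15, adjusted p = 0.0824, edgeR). Hnrnpll, a regulator of Ptprc splicing in lymphocytes, had the lowest log2 fold change of the set, -1.03 ± 0.30, and an adjusted p of 0.105 (edgeR). It was at 26.6, 34.8 and 68.4 CPM in KO and 95.6, 85.5, 56.0 and 108 CPM in WT, which overlapped.

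The most abundant member was Hnrnpk, a poly(C)-binding protein, at 1239 TPM on average over 10 libraries (769 to 1683 TPM). It stood at 934, 1134 and 1384 CPM in KO and at 1621, 1441, 1241 and 1238 CPM in WT, overlapping, with a log2 fold change of -0.29 (adjusted p = 0.345, edgeR). Hnrnpu, a chromatin-associated scaffold protein, was at -0.56 (adjusted p = 0.150, edgeR), with 297 to 456 CPM in KO and 400 to 652 CPM in WT. Hnrnpa1 and its paralog Hnrnpa2b1 were at -0.57 and 0.11.

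The PRPF and SF3 families, with 13 and 9 genes, had no calls by edgeR's test, which does not set such small families apart. At an unadjusted p below 0.05, 2 PRPF and 2 SF3 genes were lower and 1 PRPF gene higher. The medians of the PRPF and SF3 families were -0.18 and -0.07, of which the PRPF median became 0.06 and the SF3 median 0.03 without WT 15416. Prpf38a, a protein of the B complex, was at 47.6, 60.6 and 73.9 CPM in KO and 105, 88.9, 71.3 and 159 CPM in WT (log2 fold change -0.80, adjusted p = 0.110, edgeR). Prpf39, a U1-associated protein, was at 34.5, 40.0 and 45.6 CPM in KO and 21.5, 38.7, 22.3 and 28.2 CPM in WT, the highest WT library within the KO range. It was at 0.53 (adjusted p = 0.218, edgeR). Prpf18, which acts in the second step of splicing, was at -0.57 (adjusted p = 0.158, edgeR), and the U4/U6 protein Prpf31, the most abundant PRPF gene per length at 87.7 TPM, at -0.34 (-0.12 without WT 15416).

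Among the SF3 genes, Sf3a3 and Sf3b5 were at -0.50 and -0.48 (adjusted p = 0.165 for each, edgeR), Sf3a3 moving to -0.32 without WT 15416. Sf3b6, which contacts the branch-point adenosine, was at -0.39 (-0.16 without WT 15416). Sf3b1, the largest SF3B subunit, was at 441, 490 and 560 CPM in KO and at 618, 500, 458 and 496 CPM in WT. Its groups overlapped, with a log2 fold change of -0.07 ± 0.15 (adjusted p = 0.854, edgeR). Prpf8, the core of the U5 particle, was at 285 to 347 CPM in KO and 174 to 405 CPM in WT (0.15, adjusted p = 0.756, edgeR), a sign that turned to -0.29 with an offset for transcript length. Outside the set, U2af1 was at -0.31 and Zrsr2 at 0.27 (adjusted p = 0.385 and 0.592, edgeR), and at -0.19 without WT 15420 and 0.17 without KO 15412.

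**Figure D3:**
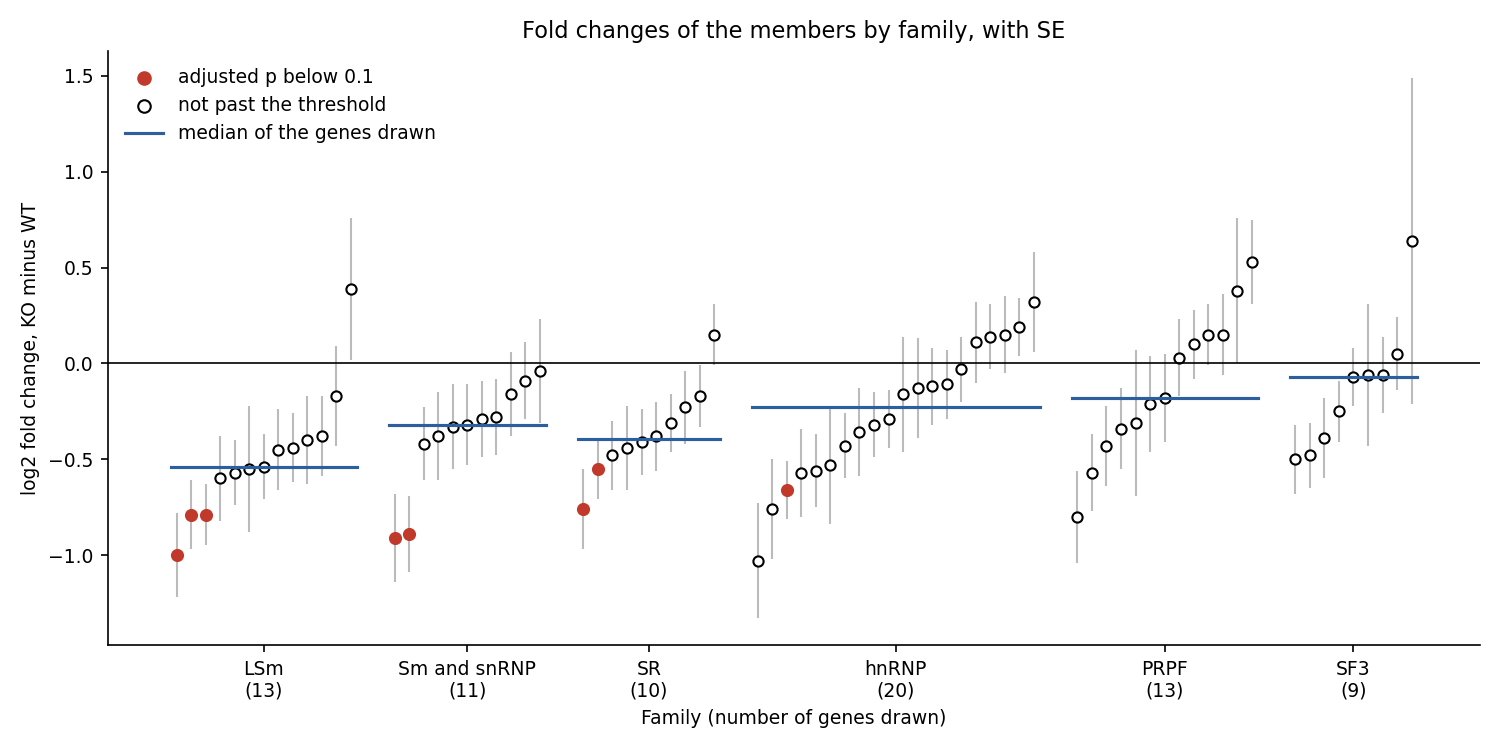
Log2 fold change (KO minus WT, vertical axis) of the members by family, each with its SE, for the 76 members with KO and WT means summing to over 2 CPM. Filled circles had an adjusted p below 0.1, and the horizontal bars are the medians of the genes drawn. LSm and Sm genes lie below 0 with 1 exception (Lsm14b), while PRPF and SF3 genes lie on both sides. The values drawn have no offset for transcript length.

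The fold changes moved with transcript length. Across genes, length and log2 fold change had a Spearman correlation of 0.32 over 78 members and 0.224 over 16285 genes, and within a library the correlation of relative level with length lay between 0.0515 and 0.243 for KO and between -0.204 and -0.110 for WT. The genes of an analysis share their libraries, so that this is a description. With an offset per library for transcript length, the median of all genes moved from 0.06 to -0.06 and that of the members from -0.32 to -0.40, with 68 of 79 below 0 (53.4% of all genes). No gene of the 16725 was then called by edgeR, with 29 members lower at an unadjusted p below 0.05. By family, the medians with the offset were -0.47 for LSm, -0.17 for Sm and snRNP and -0.43 for SR genes. They were -0.44 for hnRNP, -0.41 for PRPF and -0.24 for SF3 genes. With the offset, 11 of 13 PRPF genes and 8 of 9 SF3 genes were below 0. The contrast of LSm and Sm genes with PRPF and SF3 genes thus depended on the offset. In the quintile of genes with the shortest transcripts, the median was -0.42 for 19 members and -0.27 for all genes, and in the quintile with the longest, -0.25 for 9 members and 0.33 for all. The part of length in the fold changes was not tested beyond these values.

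Beside the set, 48 further spliceosome genes were counted, among them proteins of the U5 and U11/U12 particles, the Prp19 complex and the exon junction complex. Of these, 7 fell (14.6%, where 2.67% of all genes and 9.45% of those in the top 20% by level fell) and 0 rose (1.32% of all genes). At an unadjusted p below 0.05, 18 were lower and 0 higher (10.2% and 8.60% of all genes). The median was -0.35, and -0.21 without WT 15416. The 7 were Bcas2 (Prp19 complex), Phf5a (SF3B), Usp39 (tri-snRNP), Snrnp27 (tri-snRNP), Snrnp25 (minor spliceosome), Rbm8a (exon junction complex) and Txnl4a (U5), from -0.97 for Bcas2 to -0.63 for Txnl4a. Bcas2 was at 100 to 125 CPM in KO and 179 to 324 CPM in WT. Of 36 measured SR kinases and other splicing regulators, 0 fell and 2 rose by edgeR's test (2.67% and 1.32% of all genes). At an unadjusted p below 0.05, 4 were lower and 3 higher, near the 10.2% and 8.60% of all genes. Their median was -0.08 (0.01 without WT 15416). Among those that rose was Mbnl2, a muscleblind splicing regulator (0.75, adjusted p = 0.0824, edgeR).

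Libraries of the KO group were more alike in these genes than those of the WT group. The median coefficient of variation of the 76 members with a mean of at least 10 CPM was 13.2% in KO and 26.9% in WT, and it was lower in KO for 90.8% of them. Over 9495 genes at that level it was 23.1% and 35.9%, lower in KO for 77.2%.

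The products of the splicing genes also differ in form, and transcript use was therefore compared as the share of each transcript in the estimated reads of its gene. Of 499 member transcripts, 178 from 57 genes held enough reads to be tested. None of the 178 passed an adjusted p below 0.1 (edgeR diffSpliceDGE, against 0.0792% of 26507 transcripts), 5 had an unadjusted p below 0.05 (3.92%), and limma's diffSplice on voom values called 3. The share of all transcripts that limma called is not given here, so nothing particular to the members is read from these 3. In 2 transcripts every KO library was above every WT library, and in 5 below (2.20% and 1.69% of all).

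The smallest p belonged to Sf3b1-203, whose intron ends are printed above. Intron 4 of this gene is known to be retained in maturing erythroblasts. The share of Sf3b1-203 was 17.6%, 16.9%, 14.7%, 20.7%, 24.5% and 14.4% in KO 15405, 15406, 15409, 15411, 15412 and 15415, and 4.47%, 6.28%, 8.15% and 5.72% in WT 15416, 15417, 15418 and 15420. All KO libraries were above all WT libraries, by a clear gap. The mean was 18.1% ± 3.87 (SD, n = 6) in KO and 6.15% ± 1.53 (n = 4) in WT, while the full-length coding transcript Sf3b1-201 took 77.7% ± 3.98 and 90.0% ± 1.47.

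Relative to the other transcripts of the gene, Sf3b1-203 was higher in KO by 1.60 on the log2 scale, with an unadjusted p of 0.00158 and an adjusted p of 0.376 (edgeR diffSpliceDGE), so that it was not called. Its adjusted p ranged from 0.00792 with limma's diffSplice to 0.900 over the 14 alternatives, and the log2 ratio from 1.24 to 1.82. Within WT, the share and the summed level of the erythroblast markers ordered the libraries alike, the sums being 2420, 3940, 19012 and 240358 CPM in WT 15416, 15420, 15417 and 15418. In KO the sums were 2879, 2142, 3079, 13093, 41463 and 95027 CPM in the order of the shares above, so that the highest shares, in KO 15411 and KO 15412, went with high sums, and the lowest share, in KO 15415, with the highest sum. Between groups, KO 15405, 15406 and 15409, with sums of 2142 to 3079 CPM, had shares of 14.7% to 17.6%. WT 15418, with the sum of 240358 CPM, had a share of 8.15%. The part of erythroblast RNA in the share was not tested.

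**Figure D4:**
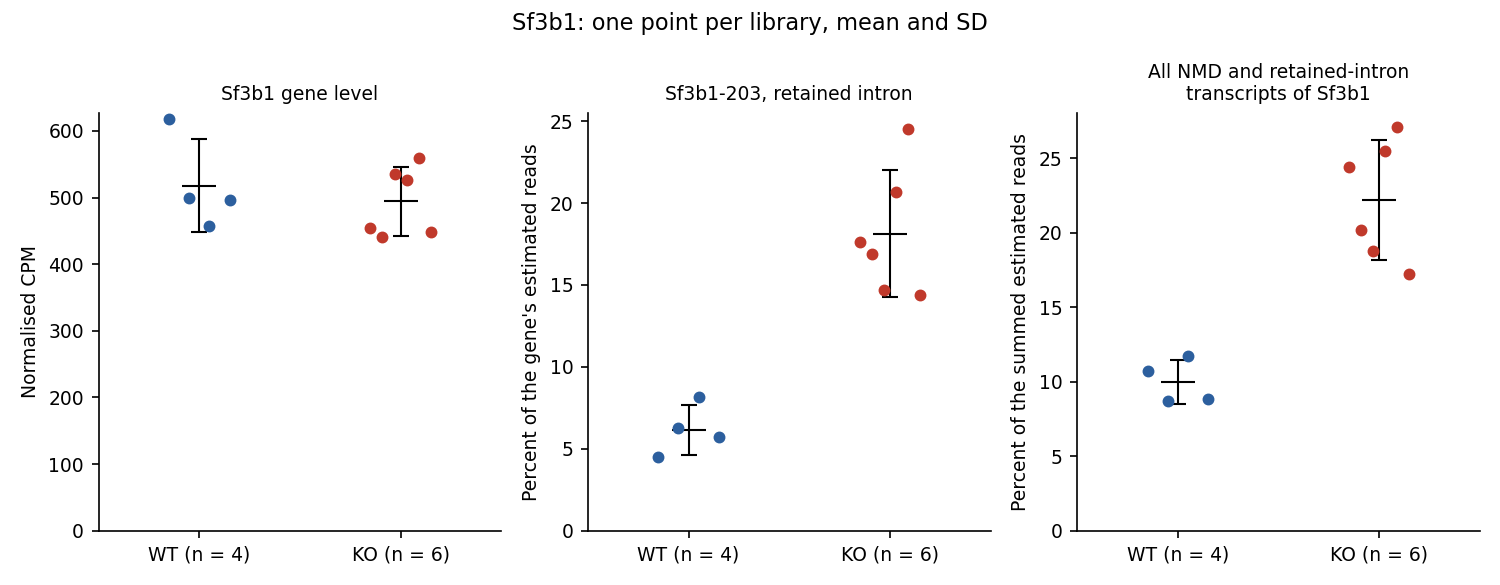
Sf3b1 in 4 WT and 6 KO libraries, with 1 point per library, the mean and the SD. The gene level (normalised CPM) overlapped between groups, whereas the share of Sf3b1-203 (14.4% to 24.5% in KO, 4.47% to 8.15% in WT) and the share of all NMD and retained-intron transcripts of Sf3b1 (17.2% to 27.1% and 8.69% to 11.7%) did not.

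Of the other 4 transcripts with the smallest p, Hnrnpu-205, a processed transcript, held 6.36% to 13.1% of its gene's reads in KO and 1.83% to 5.92% in WT, without overlap (log2 ratio 1.34, adjusted p = 1.0, edgeR diffSpliceDGE). Prpf6-203, Lsm11-201 and Prpf38b-204 had lower means in KO, but their shares overlapped. In WT they ran from 0.0401% to 30.8%, from 0% to 33.7% and from 0% to 35.3%.

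The poison-exon transcripts printed above did not differ in share beyond their spread. Hnrnpll-203 held 42.3% ± 8.24 (SD, n = 6) in KO and 43.2% ± 6.28 (n = 4) in WT. Hnrnpl-213 held 30.7% ± 6.45 and 25.8% ± 23.0, its WT libraries running from 8.62% to 59.4%.

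When all NMD and retained-intron transcripts of a gene were summed against its protein-coding transcripts, 50 members could be tested. None passed an adjusted p below 0.1 (edgeR diffSpliceDGE, against 0.159% of 6937 genes), 5 had an unadjusted p below 0.05 (9.21%), and limma's diffSplice called 1, Sf3b1, with its share over all genes not given here. The log2 ratio was above 0 for 35 of 50 (70.0%, against 65.0% of all genes). For Sf3b1 the share was 22.2% ± 4.02 (SD, n = 6) in KO and 9.99% ± 1.48 (n = 4) in WT, without overlap (log2 ratio 1.16, adjusted p = 0.167, edgeR diffSpliceDGE). The others, Lsm3, Lsm14a and Srsf4 with higher means in KO and Lsm11 with a lower one, overlapped between groups. Among members with a larger p, Sf3b3 was at 5.87% to 7.71% in KO and 3.21% to 5.14% in WT (adjusted p = 0.801, edgeR diffSpliceDGE), and Hnrnpk, in the other direction, at 23.7% to 28.5% and 29.2% to 30.7% (adjusted p = 1.0), neither overlapping. The share of all genes without overlap in this measure is not given here, so nothing particular to the members is read from the separation.

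Pooled SR genes held a large share of such transcripts, similar in KO and WT, that differed widely between genes. Pooled over 7 SR genes it was 41.7% ± 2.73 (SD, n = 6) in KO and 41.2% ± 3.39 (n = 4) in WT, where all 6937 genes together were at 14.8% ± 0.868 and 13.6% ± 1.93. By gene, the mean share over 10 libraries ran from 6.70% for Srsf4 and 17.1% for Srsf1 to 70.2% for Srsf3. Srsf3 was at 69.5% ± 4.82 in KO and 71.4% ± 2.81 in WT, Srsf2 at 56.9% ± 4.03 and 51.3% ± 3.28, and Srsf6 at 42.8% ± 5.56 and 42.5% ± 8.34, all overlapping. The 12 hnRNP genes were at 22.3% ± 2.20 and 26.1% ± 3.13. The 4 SF3 genes, led by Sf3b1, were at 12.2% to 21.4% in KO and 7.62% to 10.6% in WT, and the LSm genes were at 4.95% ± 1.01 and 3.51% ± 1.31.

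**Figure D5:**
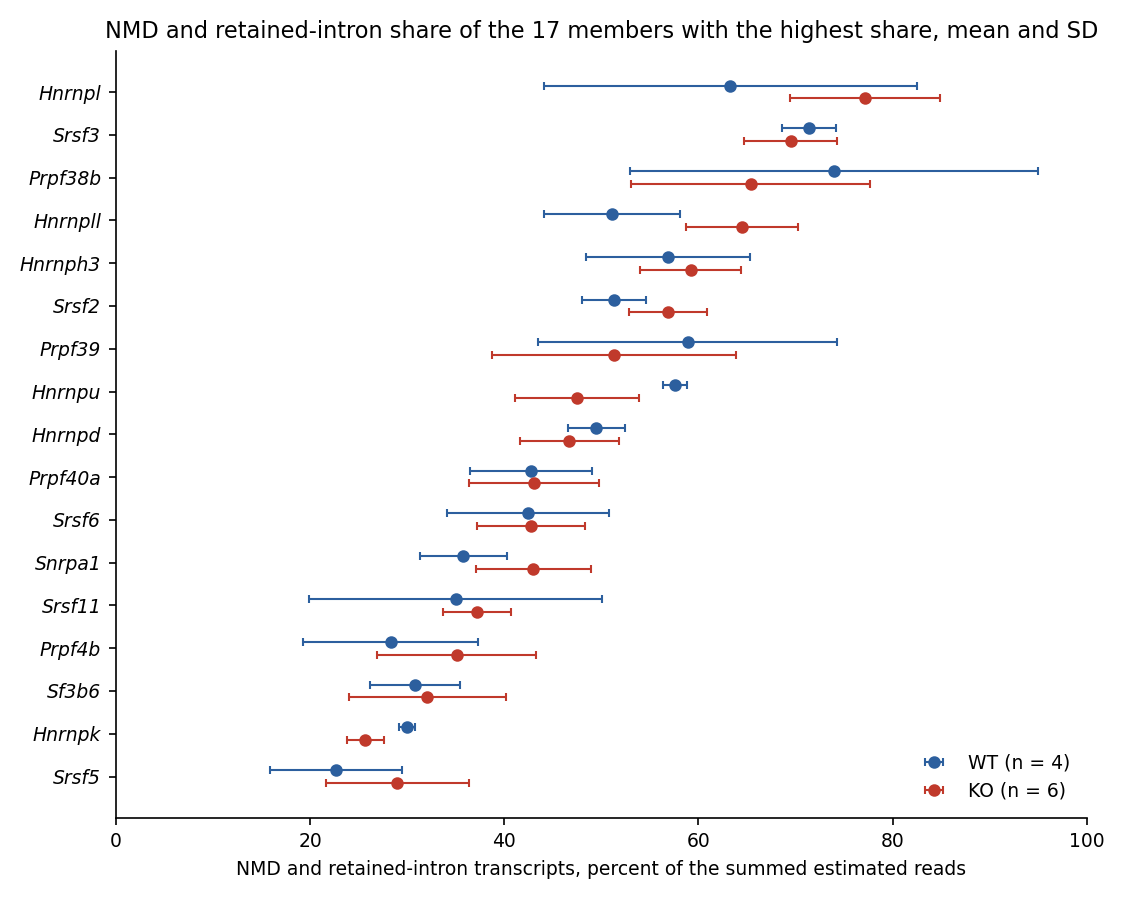
NMD and retained-intron transcripts as a percent of the summed estimated reads (NMD and retained-intron plus protein-coding), as mean and SD of 4 WT and 6 KO libraries, for the 17 members with the highest share. The SD bars of the groups overlap for most genes, Hnrnpu, Hnrnpk and Hnrnpll being exceptions, and Hnrnpl, Srsf3, Prpf38b and Hnrnpll are at the top.

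The promoters of the members were searched for short motifs. RefSeq promoters (250 bases before to 50 after the start, build GRCm38.p6) were matched for 67 of 79 members. The ETS core CCGGAAG was in 21 of these 67 (31.3%), on either strand, against 24.9% of genes in the top 20% by level, 16.2% of the genes tested and 8.86% of all 32851 promoters. GAGGAAGT, a PU.1-type ETS motif with the same GGAAG, was in 4 (5.97%), against 3.81%, 3.57% and 3.20%. The YY1 motif AAGATGGC was in 4 (5.97%), against 7.19%, 4.31% and 2.75%. CCAAT was in 34 (50.7%), against 43.5%, 42.7% and 37.4%, and TATAAA in 7 (10.4%), against 9.2%, 11.3% and 13.6%. GCATGCGC, the NRF1 core, was in 6 (8.96%), against 7.19%, 5.02% and 2.71%. Of the 7 called members with a promoter, the ETS core was in 1 (14.3%), Srsf7, and the NRF1 core in 2 (28.6%), Lsm10 and Srsf7. The 150 bases before the start of Srsf7 and of Lsm10 are shown with the NRF1 core in capitals, at chr17:80207306-80207455 (minus strand) and chr4:126096503-126096652 (plus strand, with the core on the opposite strand). A match is a description of letters, not of binding.
Srsf7 promoter: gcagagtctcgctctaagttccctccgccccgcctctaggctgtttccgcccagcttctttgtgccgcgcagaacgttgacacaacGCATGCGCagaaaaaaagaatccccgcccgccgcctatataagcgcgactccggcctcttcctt
Lsm10 promoter: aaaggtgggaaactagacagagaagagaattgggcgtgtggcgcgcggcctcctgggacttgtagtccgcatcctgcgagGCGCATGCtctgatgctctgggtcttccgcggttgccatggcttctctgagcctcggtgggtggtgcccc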

How the data were processed

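The authors sorted LT-HSCs from E14.5 fetal livers, made SmartSeq2 libraries (no strand kept), sequenced single ends and, per the labels, used bcl2fastq 2.20 and kallisto 0.44.0 on build GRCm38. The authors deposited gene counts and, per library, the estimated counts and TPM that kallisto gave for 133944 transcripts. The deposited effective lengths were the same in all libraries. Members and lists were chosen with earlier results of these data known. Named genes were every called member, the 3 smallest p and the highest mean TPM of each family, and Sf3b1, Srsf2, Prpf8, U2af1 and Zrsr2. The transcripts and the genes by class named were those with the 5 smallest p, and further ones were chosen after their values were seen.

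Gene counts were tested with edgeR 4.0.16 (TMM, robust quasi-likelihood, at least 11 counts in total, adjusted p below 0.1) in R 4.3.3, and with DESeq2 1.42.0 as an alternative. Transcript use was tested on rounded estimated counts with edgeR's diffSpliceDGE (at least 20 counts and 5% of the gene) and with limma 3.58.1. Biotypes and coordinates came from Gencode vM21, with 77 of 79 members and 133445 transcripts matched (130826 with the same version). SD and SE are over libraries and include counting error. Estimated counts of transcripts that share exons are uncertain, since single-end reads often fit several. The values of 1 gene on the list of splicing regulators are not reported here.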

Additional observations from a re-analysis of the deposited data

Results flagged for a closer look

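Of 84 sets of 4 or 6 libraries checked for a value far from the rest of its group, 8 stood out. Chance gives about 1 in 20 for independent sets. The sets here share libraries and reads, so no excess is read from the count. WT 15416 was high in 3 of them, at 1656 CPM summed over PRPF genes (other WT libraries 1186 to 1235 CPM), 2413 CPM over SF3 genes (1726 to 1818 CPM) and 2979 CPM over Sm and snRNP genes (2026 to 2151 CPM). KO 15409 was high for Hnrnpc, at 405 CPM (other KO libraries 364 to 378 CPM), and KO 15412 for Zrsr2, at 39 CPM (21.7 to 26 CPM). KO 15405 held 12.9% of Lsm11 reads in Lsm11-201, the source of its NMD and retained-intron share of 12.9% (0% to 0.138% in the other KO libraries). KO 15411 held 11.4% of Prpf38b reads in Prpf38b-204 (0% to 1.41%).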

How the results depend on the processing

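The count of 8 lower members became 17 with DESeq2 and no fold-change threshold, which also called 1 higher, 0 with an offset for transcript length and 0 with Xist level as a covariate, where 29 and 20 had an unadjusted p below 0.05. Leaving out each library gave 0 to 10 members lower and 0 to 0 higher, with 17 to 27 lower at an unadjusted p below 0.05. The same fits called 0 to 598 of all genes lower and 0 to 405 higher. Of the 10 fits, 6 gave 0 members lower, and in these no gene of all tested was called lower. The 8 genes were all among the 11 called by the study's DESeq2 design and the 11 called with edgeR's filterByExpr, and 7 of them were kept with DESeq2 size factors. The shares of all genes called with filterByExpr and with DESeq2 size factors are not given here. The median stayed below 0 throughout, from -0.37 to -0.16 over libraries left out. For transcript use, 3 transcripts were called by limma (Sf3b1-201, Sf3b1-203 and Hnrnpu-205) and 1 without the share filter (Srsf11-211), and for NMD and retained-intron shares 1 gene, Sf3b1, by limma and 1, again Sf3b1, with the length offset. The shares of all transcripts or genes called under these alternatives are not given here. Leaving out a library gave 0 to 0 calls of members for transcript use and for NMD and retained-intron shares. Sf3b1 changed sign to 0.04 on sums of transcript estimates and to 0.03 without WT 15416 (-0.09 to 0.03 over libraries left out), and Prpf8 to -0.29 with the length offset and to -0.04 without WT 15420 (-0.04 to 0.34). The cause was not tested. No paired analysis was possible because the labels give no replicate number shared between KO and WT. With 4 WT libraries the called adjusted p-values lay between 0.0824 and 0.0993, so that calls sat close to the threshold.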
